A study of Homo sapiens with 6 samples.

Results

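A set of 55 genes of mitosis, the kinetochore and condensin was examined in RNA-seq data from SW480 cells, a line established from a human colon adenocarcinoma, after knockdown of RBM39, an RNA-binding protein and splicing factor whose target events the study set out to find. The 55 genes lie on 21 chromosomes. The set was given as a list of gene names, and all 55 were found among the 56303 rows of the count table and passed the filter on low counts with 18243 genes in all. Cells carried either a nonsilencing hairpin (shCtrl, labelled wild type) or a hairpin against RBM39 (shRBM39, labelled RBM39 knockdown), with 3 libraries per group and no other agent or allele in the labels. Both hairpins were delivered by lentivirus, and per the study's methods cell lines described as stable and clonal were selected with puromycin, so the groups also differ in the cells that grew out of each selection. The study describes the replicates as independent experiments, the labels do not name separate cultures, and p-values here measure the spread between these libraries.

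In mitosis, CDK1 with its cyclins drives entry, condensin and topoisomerase II compact the chromosomes, and kinetochores built on CENPA nucleosomes attach them to the spindle. The spindle checkpoint proteins hold back CDC20 and the anaphase-promoting complex (APC/C) until every kinetochore is attached, after which separase (ESPL1) is freed from securin (PTTG1) and opens cohesin. Many of these genes are transcribed in G2 and mitosis, from promoters that often hold a cell cycle genes homology region (CHR) and CCAAT boxes, and MKI67, TOP2A and AURKA are used as marks of proliferating tumor cells.

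Promoter sequence was the first feature compared, because it is shared by the genes and was not used to choose them. RefSeq promoter windows (GRCh38.p14, 250 bases before to 50 bases after each start) were matched for 45 of the 55 genes. Where a gene had several windows, only the one with the lowest coordinate was kept. No window matched for 10 genes (UBE2C, TPX2, BIRC5, AURKA, BUB3, FOXM1, RAD21, KNTC1, CENPM and TTK), which the promoter comparisons leave out. The CHR letters TTTGAA or TTCGAA, on either strand, were found in 33 of 45 windows (73.3%), against 11.5% of 10702 windows of tested genes and 16.8% of all 27305 windows. CCAAT on either strand was found in 29 of 45 (64.4%) against 36.1% of tested genes, and both motifs in 22 of 45 (48.9%) against 4.78%. GCGG was found in 44 of 45 windows (97.8%), close to the 92.0% of tested genes. The windows below, of 80 bases each, come from ZWINT at chr10:56361271-56361350 (minus strand), CDK1 at chr10:60778110-60778189 (plus strand), CCNB2 at chr15:59105057-59105136 (plus strand), MKI67 at chr10:128126433-128126512 (minus strand), ASPM at chr1:197146763-197146842 (minus strand) and SMC3 at chr10:110567484-110567563 (plus strand). They show genes that were higher in shRBM39 (ZWINT, CDK1, CCNB2, MKI67) beside genes that were not called (ASPM, SMC3). Capitals mark CHR and CCAAT letters or their reverse complements (TTCAAA and ATTGG), which share 1 letter in the second copy of MKI67.
ZWINT: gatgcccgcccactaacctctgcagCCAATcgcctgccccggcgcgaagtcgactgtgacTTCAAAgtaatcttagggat
CDK1: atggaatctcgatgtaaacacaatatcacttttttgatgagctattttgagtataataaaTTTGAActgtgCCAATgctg
CCNB2: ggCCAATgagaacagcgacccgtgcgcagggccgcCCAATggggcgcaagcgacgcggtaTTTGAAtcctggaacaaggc
MKI67: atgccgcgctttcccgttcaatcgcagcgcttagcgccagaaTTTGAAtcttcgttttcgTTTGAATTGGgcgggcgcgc
ASPM: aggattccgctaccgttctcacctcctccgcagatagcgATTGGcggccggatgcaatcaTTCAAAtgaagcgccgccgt
SMC3: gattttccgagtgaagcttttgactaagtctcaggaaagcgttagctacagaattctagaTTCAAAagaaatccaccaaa
Genes were called higher in shRBM39 at a like rate with and without the CHR letters, 90.9% of 33 and 91.7% of 12. The median log2 fold change (shRBM39 minus shCtrl, the edgeR fit described next) was 0.55 for the former and 0.61 for the latter. Among tested genes outside the set, 35.3% of 1194 with CHR letters and 32.7% of 9463 without were called higher. A match of letters is a description of the window and not a bound site.

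RBM39 itself was at 441, 448 and 435 CPM in shCtrl and 266, 276 and 292 CPM in shRBM39, where CPM are library-size scaled counts with TMM factors. Its log2 fold change was -0.67 ± 0.038 (adjusted p = 1.24e-16) from edgeR's quasi-likelihood fit, with p-values adjusted by Benjamini-Hochberg over all tested genes, and every fold change below comes from the same fit and is given as ± standard error. Transcript remained at 0.630 of the control level, and the groups did not overlap. Total counts ran from 18042924 to 20428901 per library. Of the epithelial markers, EPCAM, KRT8, KRT18, KRT19, VIL1 and CDH1 were expressed in all libraries, CDX1 had at most 2 counts and KRT20 was at or below 1.45 CPM. Of the 8 that were tested, KRT8 (0.43), KRT18 (0.24) and KRT20 (1.82) were called higher on the log2 scale, CDX2 (-2.13), CDH1 (-0.39) and VIL1 (-0.091) lower, and EPCAM and KRT19 were not called. VIL1 lost its call with the GC content and length correction. The 4 leukocyte markers together had 2 to 13 counts per library, and the 5 fibroblast and endothelial markers together had 185 to 209 counts in shCtrl and 286 to 366 in shRBM39. The 3 of these that passed the filter (COL1A1, PECAM1 and VWF) were called higher, and the part of any marker in the results below was not tested.

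Most of the 55 genes were higher in shRBM39. At an adjusted p under 0.05, 50 of 55 were called higher, 1 lower (CENPE) and 4 were not called (KNTC1, SMC4, SMC3 and ASPM). Over all 18243 tested genes, 29.2% were called higher and 29.9% lower (59.1% in either direction), so a call in itself is common in this comparison. The median log2 fold change of the set was 0.57, beside -0.014 over all tested genes, and 46 of the 55 genes lay above the 80th percentile of all tested genes. The 55 genes were chosen with earlier results of these data known, so these comparisons describe the set and are no independent test of it. The 3 values of each group did not overlap for 50 genes, all of them higher in shRBM39, a pattern found in 31.0% of tested genes (63.3% did not overlap in either direction). In all, reads on the set made up 0.809 to 0.824% of the counts in shCtrl libraries and 1.09 to 1.12% in shRBM39 libraries. In bulk RNA, a larger share of cells in G2 and mitosis and more of these transcripts per cell cannot be told apart. Against a log2 fold change of 0.5 rather than 0, 26 of the 55 genes were called higher (5.65% of tested genes), and 5 were called and at least 2-fold higher (SPC25, BIRC5, ZWINT, CCNB1 and UBE2C, against 2.36% of tested genes).

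**Figure D1:**
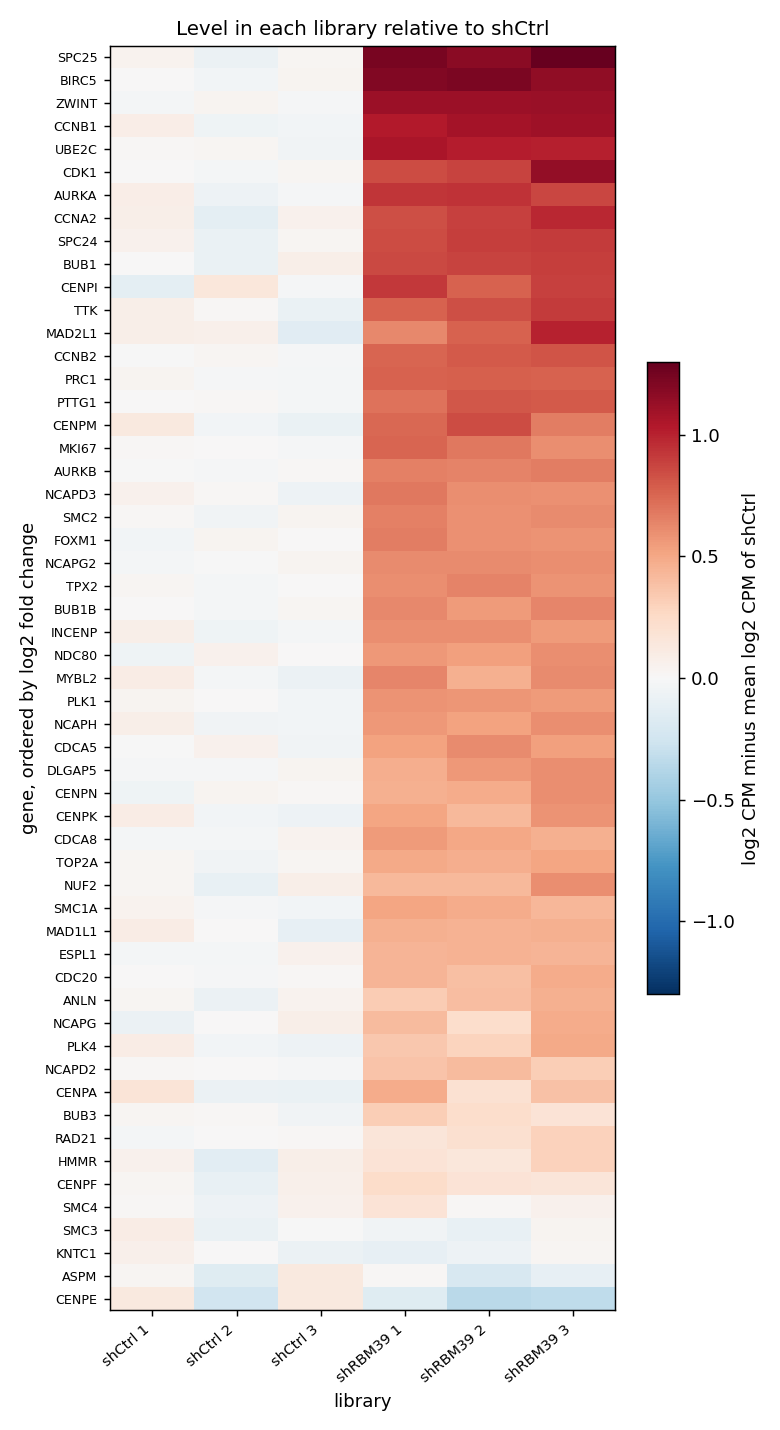
Level of each of the 55 genes (rows, ordered by log2 fold change) in each of the 6 libraries (columns), as log2 CPM minus the mean log2 CPM of shCtrl. The 3 shRBM39 columns are alike for most genes, and the 5 rows at the bottom, from SMC4 to CENPE, are the genes whose groups overlap.

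CDK1 and its cyclins rose together, by the highest median of the 9 role groups (0.93, 4 of 4 called higher). CCNB1, the cyclin that activates CDK1 at mitotic entry, was at 136, 124 and 125 CPM in shCtrl and 263, 272 and 275 CPM in shRBM39. Its log2 fold change was 1.07 ± 0.040 (adjusted p = 9.67e-22). CCNB2, a second B-type cyclin, was at 78.5, 80.6 and 77.9 CPM in shCtrl and 134, 137 and 139 CPM in shRBM39, and its log2 fold change of 0.79 ± 0.040 (adjusted p = 3.45e-18) was the lowest of the 4. Neither cyclin overlapped between groups, and the spread within a group was small beside the difference. CDK1, the kinase itself, and CCNA2, the cyclin of S phase and G2, lay between them at 0.96 and 0.90. The RPKM ratio of CCNB1 to CDK1, a comparison per length, was 2.26, 2.09 and 2.05 in shCtrl and 2.43, 2.46 and 2.07 in shRBM39, and these ratios overlapped between groups. CCNB1 and CDK1 were chosen for this ratio after their values were seen.

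The mitotic kinases and the chromosomal passenger complex were all higher (7 of 7, median 0.59). BIRC5 (survivin), the passenger subunit that is also counted among the inhibitors of apoptosis, was at 90.1, 87.9 and 92.3 CPM in shCtrl and 207, 211 and 201 CPM in shRBM39, a log2 fold change of 1.19 ± 0.039 (adjusted p = 3.35e-23). AURKA, the spindle pole kinase, was at 41.8, 37.8 and 39.0 CPM in shCtrl and 75.0, 75.6 and 72.1 CPM in shRBM39, a log2 fold change of 0.91 ± 0.047 (adjusted p = 7.79e-18). Both genes had about the same level in all 3 libraries of a group. AURKB, the kinase of the passenger complex, was at 92.6, 91.7 and 93.7 CPM in shCtrl and 146, 145 and 147 CPM in shRBM39 (0.65 ± 0.039), and INCENP, its scaffold, at 450.0, 410.3 and 420.2 CPM in shCtrl and 650.1, 648 and 627 CPM in shRBM39 (0.59 ± 0.039), with log2 fold changes in parentheses. CDCA8 (borealin) was at 40.7, 40.9 and 43.0 CPM in shCtrl and 60.8, 58.7 and 57.4 CPM in shRBM39, a log2 fold change of 0.51 ± 0.047. The log2 fold changes of these 4 subunits of the complex ranged from 0.51 to 1.19. PLK4, the kinase of centriole duplication, was at 18.7, 17.1 and 16.6 CPM in shCtrl and 22.2, 21.3 and 24.5 CPM in shRBM39, the smallest change of the group at 0.38 ± 0.070 (adjusted p = 1.99e-05). PLK1, which acts at entry, spindle poles and cytokinesis, had a log2 fold change of 0.57. Per length, the ratio of BIRC5 to CDCA8 in RPKM was 1.43, 1.39 and 1.39 in shCtrl and 2.21, 2.32 and 2.26 in shRBM39, without overlap. This pair and the other pairs of subunits below were chosen after their values were seen.

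All 6 spindle checkpoint genes rose, with a median of 0.70. BUB1, the checkpoint kinase that is recruited to kinetochores, was at 52.6, 49.4 and 55.5 CPM in shCtrl and 95.3, 96.6 and 97.8 CPM in shRBM39, with the highest log2 fold change of the group, 0.88 ± 0.045 (adjusted p = 5.75e-18). MAD2L1, which binds CDC20, was at 20.8, 20.7 and 17.8 CPM in shCtrl and 30.4, 33.6 and 39.5 CPM in shRBM39, a log2 fold change of 0.80 ± 0.075 (adjusted p = 2.55e-11). The shRBM39 libraries of MAD2L1 spread more than those of BUB1, yet all 3 stood above the control values. BUB1B (BUBR1), a part of the mitotic checkpoint complex, was at 136, 132 and 137 CPM in shCtrl and 208, 198 and 209 CPM in shRBM39, a log2 fold change of 0.60 ± 0.038 (adjusted p = 1.43e-15). BUB3, its binding partner, was at 53.4, 53.3 and 51.0 CPM in shCtrl and 65.6, 61.4 and 59.4 CPM in shRBM39, with the smallest log2 fold change, 0.24 ± 0.047 (adjusted p = 3.91e-05). BUB3 lost its call in limma-trend fits on log2(RPKM + 1) and log2(RPKM + 0.1), where its adjusted p was 0.101 and 0.0982. TTK (MPS1), the kinase upstream of the checkpoint, and MAD1L1, the anchor of MAD2L1, had log2 fold changes of 0.84 and 0.46.

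**Figure D2:**
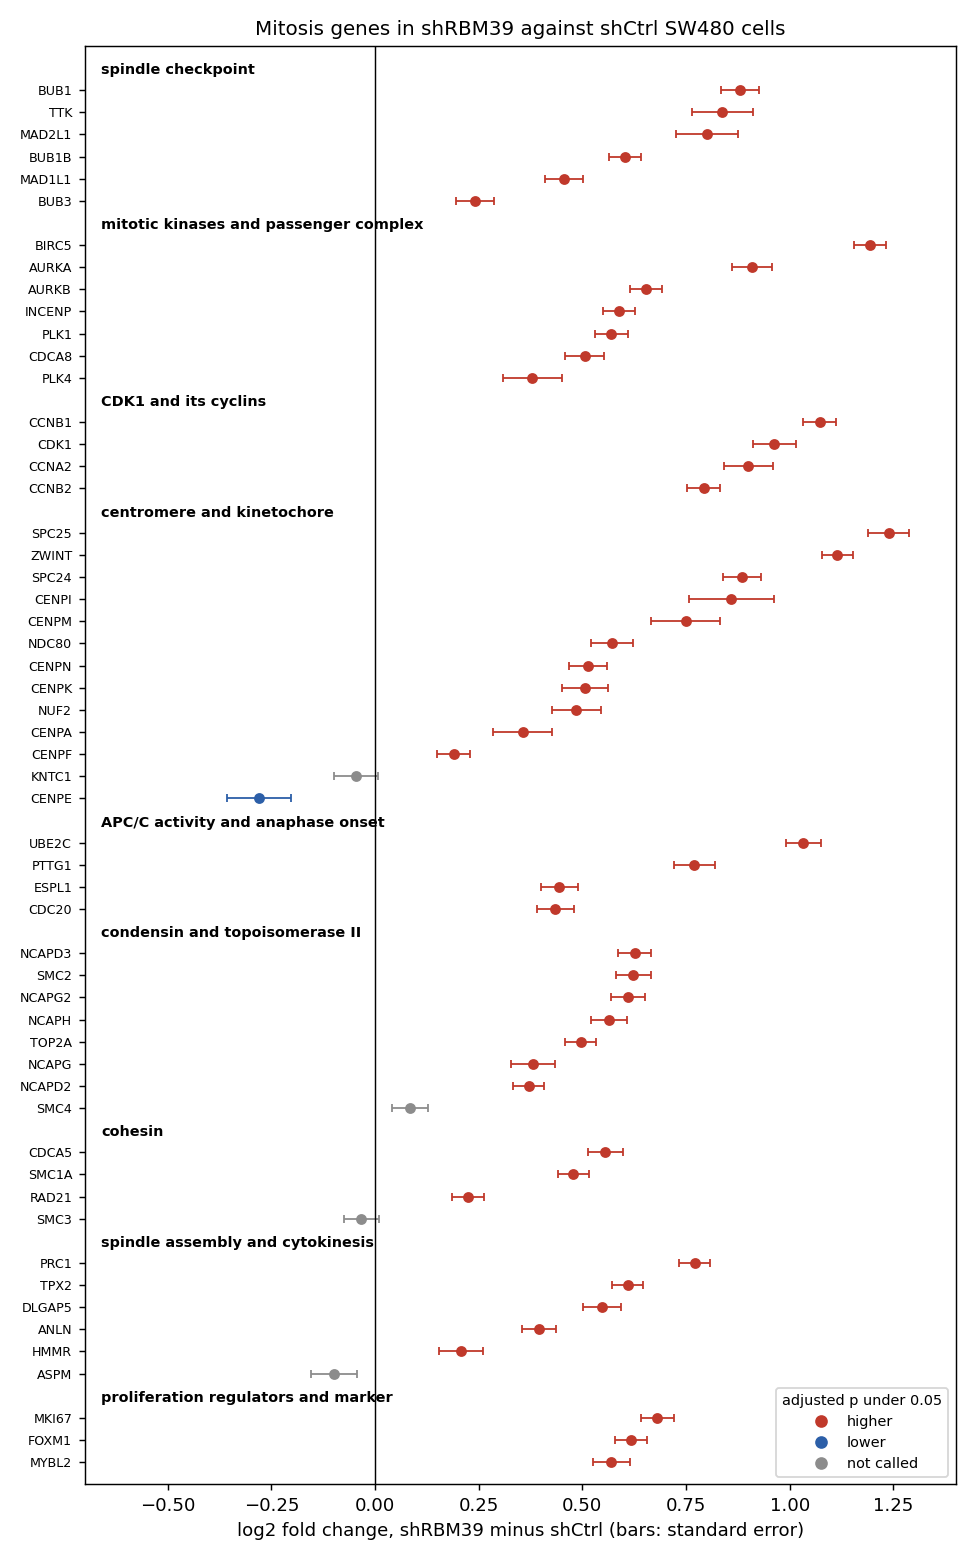
Log2 fold change (shRBM39 minus shCtrl, horizontal axis) of each of the 55 genes by role, with standard errors as bars and colors for the call at an adjusted p under 0.05. Of the 55 points, 50 are called higher, CENPE is called lower, and KNTC1, SMC4, SMC3 and ASPM lie near 0.

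The centromere and kinetochore genes held both the highest and the lowest values of the set. Of 13 genes, 11 were called higher and 1 lower, with a median of 0.51. SPC25 (chr2:168834132-168913371, GRCh38), a subunit of the NDC80 complex that binds microtubules, was at 31.3, 28.8 and 30.9 CPM in shCtrl and 71.4, 68.5 and 74.6 CPM in shRBM39, and its log2 fold change of 1.24 ± 0.050 (adjusted p = 7e-21) was the highest of all 55. ZWINT, which links the outer kinetochore to the RZZ complex, was at 158, 165 and 159 CPM in shCtrl and 346, 347 and 349 CPM in shRBM39, a log2 fold change of 1.11 ± 0.037 (adjusted p = 4.79e-23). At the other end, CENPE (chr4:103105349-103198445), the kinetochore kinesin that carries chromosomes to the metaphase plate, was at 29.4, 22.7 and 29.5 CPM in shCtrl and 24.3, 21.1 and 21.5 CPM in shRBM39, a log2 fold change of -0.28 ± 0.077 (adjusted p = 0.0021). One control library of CENPE lay within the range of shRBM39, so its groups overlapped, and it kept its call when each library was left out in turn. With counts adjusted, library by library, for GC content and exon length, CENPE was at -0.16 (adjusted p = 0.0789). KNTC1 (ROD), a subunit of the RZZ complex, was at 40.9, 39.1 and 37.0 CPM in shCtrl and 36.3, 37.4 and 39.7 CPM in shRBM39, and these values overlapped (-0.046 ± 0.053 (adjusted p = 0.471)). KNTC1 was called lower with library totals alone (-0.17, adjusted p = 0.00628) and was at 0.076 with the GC content and length correction.

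CENPA, the histone H3 variant that marks the centromere, was at 24.7, 20.7 and 20.6 CPM in shCtrl and 30.5, 25.2 and 28.4 CPM in shRBM39. Its log2 fold change was 0.36 ± 0.071 (adjusted p = 6.2e-05), and the 2 limma-trend fits on RPKM gave 0.21 and 0.23 with adjusted p of 0.0621 and 0.0611. CENPN, which binds CENPA nucleosomes, was at 64.5, 68.6 and 67.8 CPM in shCtrl and 91.9, 93.3 and 102 CPM in shRBM39 (0.51 ± 0.045 (adjusted p = 6.24e-12)). All 3 values of both genes were above the controls. The other members of the inner kinetochore, CENPI, CENPK and CENPM, had log2 fold changes of 0.86, 0.51 and 0.75, and CENPF, a large protein of the outer kinetochore, had 0.19. CENPF lost its call with library totals alone (0.066, adjusted p = 0.131) and in both fits on RPKM. Within the NDC80 complex, SPC24 (0.88) and SPC25 (1.24) had larger log2 fold changes than NDC80 (0.57) and NUF2 (0.49). The RPKM ratio of SPC25 to NDC80 was 1.97, 1.68 and 1.87 in shCtrl and 2.92, 2.86 and 2.97 in shRBM39, and the groups did not overlap.

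Genes of APC/C activity and anaphase onset were all higher (4 of 4, median 0.61). UBE2C, the ubiquitin-conjugating enzyme that works with the APC/C, was at 52.6, 53.0 and 50.3 CPM in shCtrl and 109, 105 and 105 CPM in shRBM39, a log2 fold change of 1.03 ± 0.043 (adjusted p = 1.96e-20). CDC20, the coactivator that the checkpoint holds back, was at 49.9, 49.2 and 50.2 CPM in shCtrl and 67.4, 65.0 and 69.3 CPM in shRBM39, a log2 fold change of 0.44 ± 0.045 (adjusted p = 2.58e-10). The 6 values of each gene fell into 2 tight groups. PTTG1 (securin) and ESPL1 (separase), inhibitor and protease of the same pair, had log2 fold changes of 0.77 and 0.44.

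Condensin genes and TOP2A rose by a narrow range of values with 1 exception. Of 8 genes, 7 were called higher, with a median of 0.53. NCAPD3, a subunit of condensin II, was at 139, 135 and 128 CPM in shCtrl and 216, 204 and 202 CPM in shRBM39, a log2 fold change of 0.63 ± 0.040 (adjusted p = 1.8e-15). SMC2, the ATPase of both condensins, was at 67.6, 64.9 and 68.5 CPM in shCtrl and 106, 101 and 103 CPM in shRBM39, a log2 fold change of 0.62 ± 0.042 (adjusted p = 8.41e-15). SMC4, the partner ATPase of SMC2, was at 171, 162 and 177 CPM in shCtrl and 193, 171 and 176 CPM in shRBM39, and its groups overlapped (0.084 ± 0.042 (adjusted p = 0.0865)). The direction of SMC4 depended on the scaling: it was at -0.039 with library totals alone and at -0.039 and -0.041 in the fits on RPKM, and was called higher with the GC content and length correction (0.18) and without shCtrl replicate 3 (0.12), shRBM39 replicate 2 (0.12) or shRBM39 replicate 3 (0.10). The RPKM ratio of SMC2 to SMC4 was 0.52, 0.52 and 0.51 in shCtrl and 0.72, 0.77 and 0.76 in shRBM39, without overlap. NCAPD2, a condensin I subunit, was at 436, 434 and 426 CPM in shCtrl and 559.8, 575 and 539.8 CPM in shRBM39, a log2 fold change of 0.37 ± 0.037 (adjusted p = 1.11e-10). The other condensin I subunits, NCAPG and NCAPH, had log2 fold changes of 0.38 and 0.56, and the condensin II subunit NCAPG2 had 0.61. TOP2A, which untangles sister DNA, had 0.50.

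Cohesin genes had the lowest median of the 9 role groups, 0.35, with 3 of 4 called higher. CDCA5 (sororin), which stabilizes cohesin on replicated chromatin, was at 69.6, 72.6 and 67.6 CPM in shCtrl and 101, 107 and 101 CPM in shRBM39, a log2 fold change of 0.56 ± 0.043 (adjusted p = 2.5e-13). SMC3, an ATPase of the ring, was at 261, 229.9 and 244 CPM in shCtrl and 237, 229.5 and 251 CPM in shRBM39, with overlapping groups (-0.033 ± 0.042 (adjusted p = 0.511)). SMC3 was called lower with library totals alone (-0.16) and in both fits on RPKM, and it was at 0.020 without shCtrl replicate 1. SMC1A, the other ATPase, and RAD21, the kleisin that separase cuts, had log2 fold changes of 0.48 and 0.23. RAD21 lost its call in both fits on RPKM (0.10 and 0.10, adjusted p = 0.0686 and 0.0692). The RPKM ratio of SMC1A to SMC3 was 1.55, 1.69 and 1.57 in shCtrl and 2.35, 2.39 and 2.11 in shRBM39, and the groups did not overlap.

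Among genes of spindle assembly and cytokinesis, 5 of 6 were called higher (median 0.47). PRC1, which bundles microtubules of the central spindle, was at 189, 182 and 181 CPM in shCtrl and 313, 316 and 313 CPM in shRBM39, a log2 fold change of 0.77 ± 0.037 (adjusted p = 7.17e-19). HMMR, a spindle-associated protein, was at 48.6, 42.4 and 49.2 CPM in shCtrl and 52.8, 51.6 and 57.3 CPM in shRBM39, a log2 fold change of 0.21 ± 0.053 (adjusted p = 0.0011). The HMMR groups were close without overlapping, and its call was lost with library totals alone (0.084, adjusted p = 0.171) and in both fits on RPKM (0.078 and 0.083, adjusted p = 0.309 and 0.307). ASPM, a spindle pole protein, was at 65.6, 57.8 and 70.2 CPM in shCtrl and 64.9, 55.8 and 59.6 CPM in shRBM39, with overlapping groups (-0.10 ± 0.056 (adjusted p = 0.126)). ASPM was called lower without shCtrl replicate 2 (-0.17), without shRBM39 replicate 1 (-0.16) with library totals alone (-0.22) and with upper-quartile scaling (-0.13), and was at 0.032 after the GC content and length correction. TPX2, the activator of AURKA, DLGAP5, a spindle assembly factor, and ANLN, the contractile ring scaffold, had log2 fold changes of 0.61, 0.55 and 0.40.

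The proliferation marker and both transcription regulators were higher (3 of 3). MKI67, the antigen of the Ki-67 stain, was at 1118, 1104 and 1089 CPM in shCtrl and 1865, 1771 and 1672 CPM in shRBM39, a log2 fold change of 0.68 ± 0.039 (adjusted p = 1.01e-16). MYBL2 (B-MYB), which binds the MuvB core to switch on mitotic genes, was at 256, 236 and 228 CPM in shCtrl and 373, 329.6 and 366 CPM in shRBM39, a log2 fold change of 0.57 ± 0.044 (adjusted p = 2.39e-13). FOXM1, the forkhead factor of G2 and mitosis, had a log2 fold change of 0.62. The 3 changes thus spanned 0.57 to 0.68.

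Levels of the 55 genes in control cells spanned a wide range when compared per length. The highest mean RPKM in shCtrl was that of INCENP (99.4 ± 3.90, SD, n = 3), followed by SMC1A (95.4 ± 1.85) and MYBL2 (90.1 ± 4.67). The lowest was that of CENPI (1.39 ± 0.14), and the median of the 55 was 17.6 RPKM. Level in control cells had little relation to the log2 fold change (Spearman's rho = 0.11 over 55 genes, which share the same libraries).

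Length had a clearer relation to the fold change. Merged exon length ran from 1286 to 12807 nucleotides (median 4321, against 3901 over tested genes), and GC content from 34.7 to 60.7% (median 44.3%, against 49.3%). The median log2 fold change was 0.79 for the 15 genes under 3000 nucleotides, 0.57 for the 22 genes from 3000 to 6000 and 0.42 for the 18 longer genes, and the same classes of tested genes had medians of 0.019, 0.009 and -0.079. Over the 55 genes, the log2 fold change and log2 length had a Pearson's r of -0.56 and a Spearman's rho of -0.49, while the rho with GC content was 0.27. After the same adjustment, the rho with length was -0.39 and the medians of the 3 classes were 0.77, 0.58 and 0.48. Long genes were not uniformly low. Of the 7 genes above 9000 nucleotides, CENPE, ASPM and KNTC1 had the 3 lowest log2 fold changes of the set, whereas MKI67 (0.68), NCAPD3 (0.63), SMC1A (0.48) and CENPF (0.19) were called higher. The part of length or RNA quality in these fold changes was not tested.

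**Figure D3:**
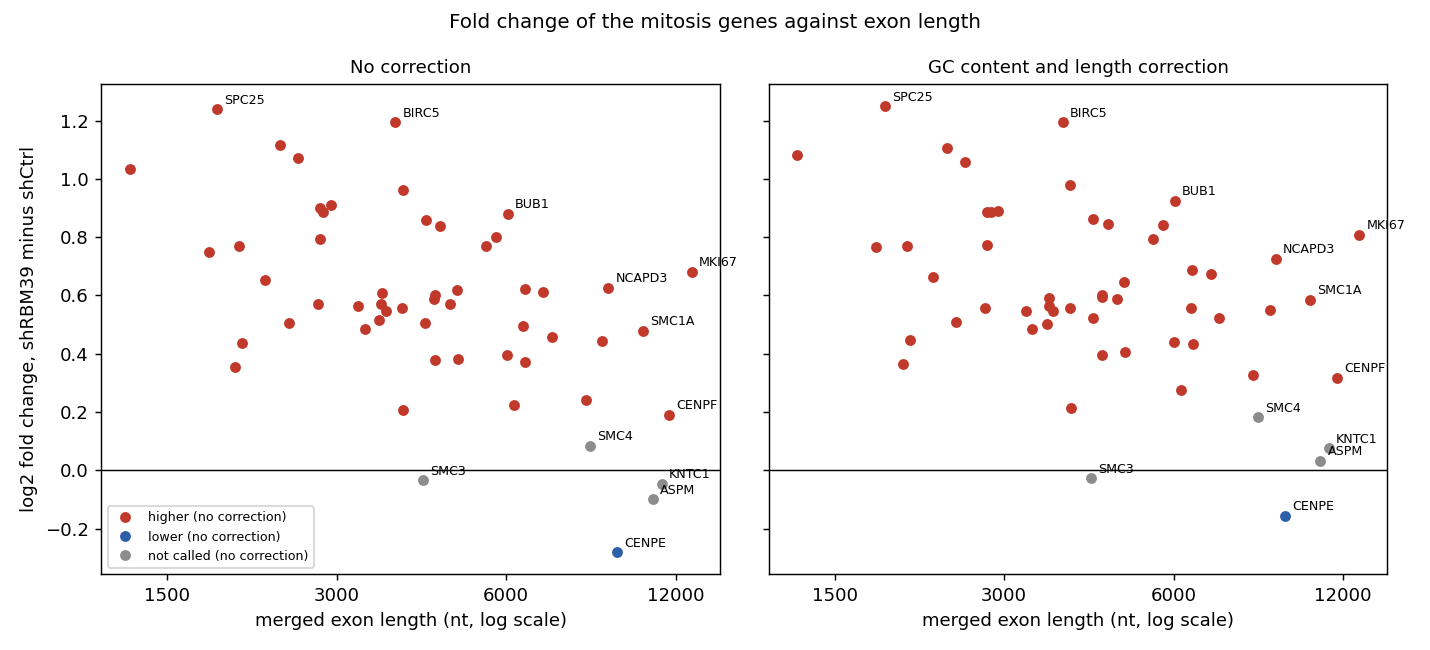
Log2 fold change (vertical axis) of the 55 genes against merged exon length in nucleotides (log scale), without a correction on the left and with the GC content and length correction on the right, with colors for the call without correction. Short genes reach the highest values in both panels, and CENPE, ASPM and KNTC1 stay at the low end among the longest genes.

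The splicing table of the study listed 1 record each for 9 of the 55 genes (16.4%), against 6.54% of tested genes. These shares were not matched for expression level or number of exons, so they do not measure an excess of splicing changes. It holds 1582 records that the authors had selected for a difference between groups, and calls its 3 plus 3 values group 1 and group 2 without saying which is the knockdown, so these names are kept and no direction of knockdown is drawn. Inclusion levels run from 0 to 1 and are adjusted for the length over which reads can fall. An edgeR fit of inclusion against skipping reads over all listed records called 37.3% of them, and 4 of the 9 (INCENP, MYBL2, MKI67 and AURKB). With 3 values against 3, an exact permutation test cannot give a two-sided p below 0.1, and 6 of the 9 records had no overlap between groups and reached it, where 57.5% of all listed records had no overlap. The 3 exons with the most reads behind them are shown next in lower case with the exon in capitals and 30 bases of intron on each side (GRCh38, plus strand): the 12-nucleotide exon 11 of INCENP at chr11:62141500-62141511, and exons 2 and 3 of MYBL2 at chr20:43673806-43673899 and chr20:43681784-43681855, numbered in the canonical transcript of GENCODE v44.
INCENP exon 11: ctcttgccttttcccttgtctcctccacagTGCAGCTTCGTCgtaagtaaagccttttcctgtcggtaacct
MYBL2 exon 2: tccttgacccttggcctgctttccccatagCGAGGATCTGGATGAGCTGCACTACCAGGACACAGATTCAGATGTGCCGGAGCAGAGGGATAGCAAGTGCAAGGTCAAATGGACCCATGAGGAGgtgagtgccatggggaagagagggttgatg
MYBL2 exon 3: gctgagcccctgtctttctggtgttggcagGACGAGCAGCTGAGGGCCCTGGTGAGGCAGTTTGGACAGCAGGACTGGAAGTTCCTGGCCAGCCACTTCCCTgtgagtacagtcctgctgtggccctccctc
All 3 are coding over their whole length. The INCENP exon keeps the reading frame and belongs to 1 of 6 annotated transcripts. Its inclusion level was 0.308, 0.393 and 0.346 (group 1) against 0.129, 0.163 and 0.140 (group 2), from 205 to 293 reads per library, a gap of 0.205 between means, group 1 minus group 2 (edgeR adjusted p = 1.29e-12). Every value of group 1 was above every value of group 2.

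MYBL2 was listed as a pair of mutually exclusive exons, with 675 to 1264 reads per library. By the rMATS convention for the plus strand, the level is that of the first exon of the pair, and it was 0.802, 0.705 and 0.800 (group 1) against 0.908, 0.877 and 0.871 (group 2), a gap of -0.116 (edgeR adjusted p = 6.6e-12). Exon 2 has 94 nucleotides and belongs to 2 of 2 annotated transcripts, and exon 3 has 72 and belongs to 1 of 2. The canonical transcript holds both, so reads on junctions of that transcript can enter either count of this record. No annotated transcript lacks exon 2, so the level is not a plain choice between the 2 exons. Each of the other records is a skipped exon. For MKI67 it is exon 7, of 1080 nucleotides, at chr10:128114928-128116007, with levels of 0.486, 0.689 and 0.423 (group 1) against 0.187, 0.209 and 0.349 (group 2). These rested on 22 to 65 reads per library, and the difference of 0.284 had an edgeR adjusted p of 0.0113. Skipping reads were few, at 5, 3 and 6 (group 1) and 7, 11 and 8 (group 2). For AURKB it is exon 2, of 73 nucleotides and with the start of the coding sequence (48 coding bases), at chr17:8210177-8210249. Its levels were 0.502, 0.390 and 0.508 (group 1) against 0.793, 0.658 and 0.762 (group 2), from 12 to 42 reads, with a difference of -0.271 and an edgeR adjusted p of 0.044. The AURKB call was lost when any 1 of the 6 values was left out (adjusted p from 0.0599 to 0.12), and that of MKI67 without replicate 1 or 2 of either group (0.0638 to 0.0914).

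The remaining 5 records were not called in the edgeR fit. Exon 14 of PRC1 (42 nucleotides) had levels of 0.201, 0 and 0.159 (group 1) against 0.791, 0.602 and 0.531 (group 2) and an adjusted p of 0.0545, but only 3 to 6 reads per library. A UBE2C exon of 151 nucleotides at chr20:45815390-45815540, outside the canonical transcript, had 0.735, 0.316 and 0.316 (group 1) against 1, 1 and 1 (group 2), from 1 to 7 reads. Differences of this size in both genes rest on a handful of reads. Exon 7 of CENPN (102 nucleotides, 40 to 69 reads) had 0.878, 0.696 and 0.767 (group 1) against 0.858, 0.914 and 0.874 (group 2), with overlapping groups. Exon 2 of KNTC1 (202 nucleotides, 3 to 7 reads) had 0.701, 0.164 and 0.495 (group 1) against 1, 0.439 and 1 (group 2). Exon 2 of HMMR (99 nucleotides, 5 to 15 reads) had 1, 1 and 0.881 (group 1) against 1, 0.602 and 0.665 (group 2). In CENPN, KNTC1 and HMMR the spread within a group was as wide as the gap between groups.

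**Figure D4:**
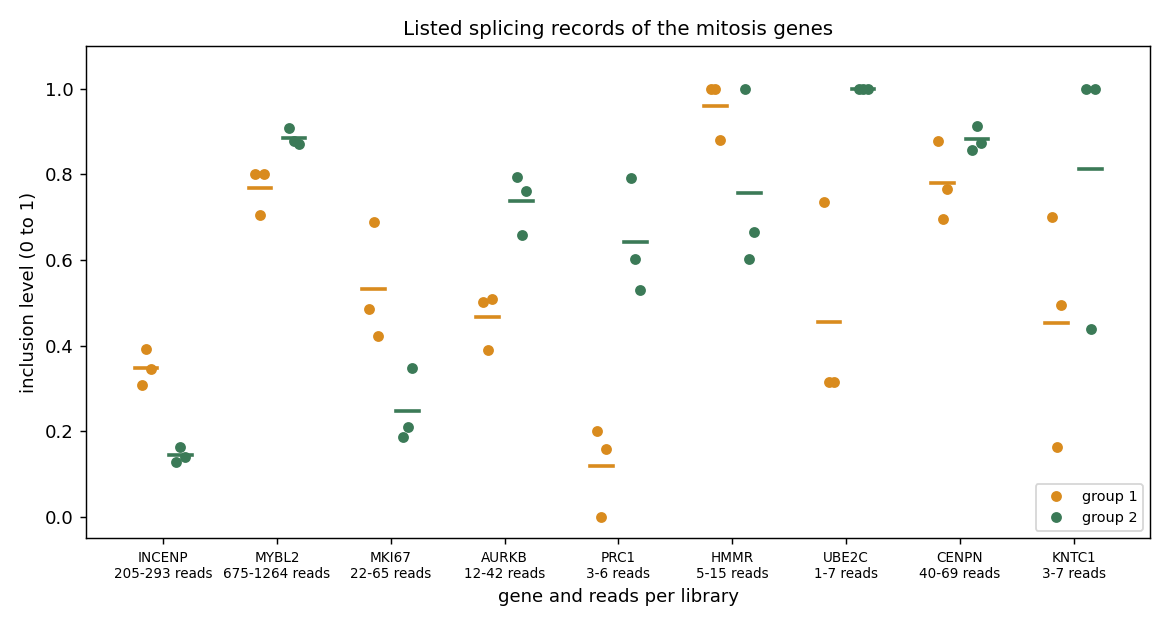
Inclusion level (vertical axis, 0 to 1) of the 9 listed splicing records of the set, with 1 point per value, a bar at the mean of each group and the reads per library under each gene. INCENP and MYBL2 have narrow, separate groups with at least 205 reads in every library, whereas the records of PRC1, UBE2C and KNTC1 rest on at most 7 reads.

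Further genes of mitosis, 93 in 6 lists, had a lower median than the 55. Over all tested genes, 29.2% were called higher and 29.9% lower. Of the 93, 59 were called higher, 13 lower and 21 were not called, with a median log2 fold change of 0.33. The 2 highest of the called genes were CENPW, a DNA-binding kinetochore subunit, at 20.7, 19.1 and 21.3 CPM in shCtrl and 43.2, 44.8 and 47.8 CPM in shRBM39 (1.15 ± 0.058), and CDC25A, the phosphatase that activates CDKs, at 19.4, 21.4 and 22.1 CPM in shCtrl and 48.4, 44.2 and 38.9 CPM in shRBM39 (1.06 ± 0.067). The 2 lowest were TFDP2, a dimer partner of E2F, at 34.7, 37.2 and 38.1 CPM in shCtrl and 21.5, 22.4 and 20.9 CPM in shRBM39 (-0.76 ± 0.059), and RBL2 (p130), the pocket protein of the DREAM repressor, at 35.3, 33.0 and 34.7 CPM in shCtrl and 24.0, 23.6 and 23.6 CPM in shRBM39 (-0.53 ± 0.057). None of these 4 overlapped between groups, a pattern found in 63.3% of tested genes. The lists differed in their counts, though those of the DREAM and MuvB genes (36.4% higher, 27.3% lower) were near the shares over all tested genes. The other cohesin and condensin genes, outside the 55, were called alike in both directions (41.7% each). Other kinetochore and centromere genes were called higher in 20 of 26 cases and lower in 2 (median 0.42), mitotic entry and exit genes higher in 11 of 15 and lower in 0 (0.42), and other spindle and cytokinesis genes higher in 9 of 12 and lower in 2 (0.43). APC/C subunits and coactivator were higher in 10 of 17 and lower in 1 (0.22), other cohesin and condensin genes higher in 5 of 12 and lower in 5 (-0.015), and genes of the DREAM and MuvB complexes, which repress or activate mitotic promoters, higher in 4 of 11 and lower in 3 (0.086). The splicing table held 20 records in 12 of these 93 genes, where 6.54% of tested genes, again not matched for expression level or exons, had a record. The edgeR fit called records of CDC25B, CDC25C, DSN1, MIS12, PDS5A, SKA2 and STAG2. The calls of DSN1 (adjusted p = 0.0476) and PDS5A (0.0277) were each lost in 5 of the 6 edgeR fits with 1 value left out, and each of the other genes kept at least 1 called record in all 6. The called DSN1 record, like a called record of CDC25B and of CDC25C, is a pair of mutually exclusive exons. The canonical transcript holds both exons of each pair, the limit given above for MYBL2. The skipped exon of DSN1 was not called (edgeR adjusted p = 0.119). The CDC25C skipped exon had a mean level of 0.573 in group 1 and 0.917 in group 2 (adjusted p = 0.00153), from at least 18 reads per library.

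**Figure D5:**
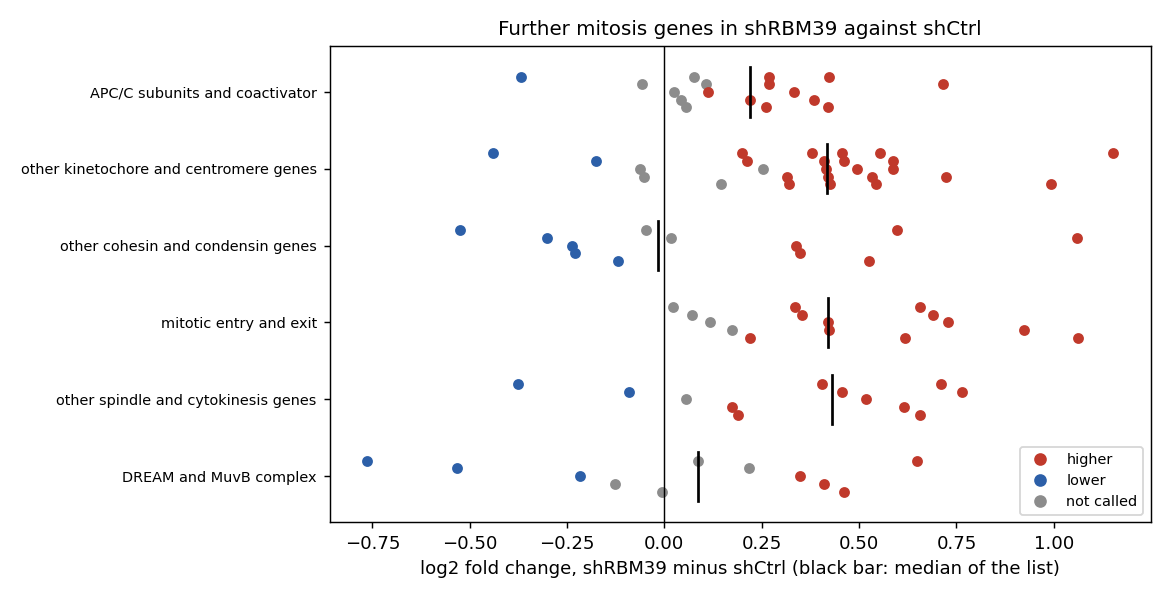
Log2 fold change (horizontal axis) of the 93 further mitosis genes in 6 lists, with 1 point per gene, colors for the call at an adjusted p under 0.05 and a black bar at the median of each list. Points called higher dominate 4 lists, whereas the other cohesin and condensin genes and the DREAM and MuvB genes hold called points on both sides of 0 in nearer numbers.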

How the data were processed

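The study sequenced stranded mRNA libraries with unique identifiers from SW480 cells, 3 with shCtrl and 3 with shRBM39. Groups came from sample titles, and NC columns were taken as shCtrl because the series has a single control group. The submitters' processing notes name Trimmomatic 0.36, STAR 2.5.3a, featureCounts, Subread 1.5.1, edgeR 3.12.1 and GRCh38, with no role stated. Raw counts over the merged exons of each symbol were deposited by the authors, and RPKM values that were recomputed from those counts within a relative difference of 1.2e-13. Whether identifiers were collapsed is not given in the sources used here, and multi-mapped reads could shift counts of genes with close copies. Total counts ran from 18042924 to 20428901 per library. Replicates of a group differed beyond counting noise (chi-square per degree of freedom 2.11 to 4.21), and all 6 libraries were kept.

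Differential expression used edgeR 4.0.16 in R 4.3.3 (filterByExpr, TMM factors, a quasi-likelihood fit on group) with Benjamini-Hochberg adjustment over 18243 genes at 0.05. Results were recomputed with library totals alone, upper-quartile scaling, DESeq2 1.42.0, each library left out, the replicate block, no filter, a minimum of 10 counts in all libraries, limma-trend (limma 3.58.1) on log2(RPKM + 1) and log2(RPKM + 0.1), per-library correction for GC content and merged exon length, a threshold of 0.01, and glmTreat at 0.5 on the log2 scale. The edgeR fits of expression and of splicing reads were also run on simulated data. The simulated splicing reads held counting noise only, without added spread between libraries, so that run does not bear on the calls of the listed records. Gene coordinates and exon numbers are from GENCODE v44, with which 96.7% of the 4044 exons of the set were identical.

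The authors compared splicing with rMATS and deposited inclusion levels (a fraction from 0 to 1) and inclusion and skipping read counts for records they had selected. Its columns of their own comparison (p-value, FDR and difference) were not used, so that an edgeR fit of the reads replaced the test planned on those columns. Unlisted events were not analysed here. The members and lists were chosen with earlier results of these data known. Values in every library are given for the genes with the highest and lowest log2 fold change in each of 9 role groups (2 of each in groups of over 6), genes with a splicing record and CENPA, BUB1B and MAD2L1, and, of the further lists, for the 2 highest and 2 lowest called genes. KNL1 and HASPIN were read under older symbols (CASC5, GSG2).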

Additional observations from a re-analysis of the deposited data

How the results depend on the processing

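Of the 825 alternative values of the 55 genes (15 settings each), 794 kept direction and call, 13 lost the call, 12 gained one and 6 changed sign. The sign changes were SMC4 with library totals alone (-0.039) and in limma-trend fits on log2(RPKM + 1) (-0.039) and log2(RPKM + 0.1) (-0.041), KNTC1 (0.076) and ASPM (0.032) with the GC content and length correction, and SMC3 without shCtrl replicate 1 (range with each library left out -0.077 to 0.020). None of these 4 genes was called in the reported fit. Library totals alone moved the median of all tested genes by -0.12 and log2(RPKM + 0.1) by -0.11 on the log2 scale, and the share of calls that were higher from 49.4% to 33.9% and 33.6% (33.6% on log2(RPKM + 1)). The median of the 55 genes was 0.45 with library totals alone, 0.44 and 0.43 on log2(RPKM + 0.1) and log2(RPKM + 1), and 0.54 with upper-quartile scaling. Genes of the set called lower numbered 4 with library totals alone, 2 with upper-quartile scaling and in each fit on RPKM, and 0 with the GC content and length correction. Testing for a change beyond 0.5 on the log2 scale called 26 of the set (26 higher, 0 lower), 17 of the 93 further genes and 2232 of all tested genes.

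With each library left out in turn, 51 to 52 of the set were called (50 to 51 higher, 1 to 2 lower), with a median from 0.57 to 0.60 (0.60 without shCtrl replicate 1), 68 to 73 of the further genes, 10138 to 10263 of all tested genes, and a log2 fold change of RBM39 from -0.70 to -0.63. The replicate number as a block gave 51 of the set called (50 higher and 1 lower), 73 of the further genes, 10810 of all tested genes, a median of 0.57 and -0.67 for RBM39. Deviations of same-numbered libraries correlated from -0.037 to 0.009, and those of differently numbered libraries from -0.032 to 0.024. Such small values cannot show whether same-numbered libraries were prepared together. Of the 9 splicing records, 4 had at least 20 reads in every library and 5 (AURKB among them) had fewer in at least 1. In all, 4 were called in the edgeR fit and 2 to 3 with 1 value left out, which leaves 2 values in that group. Selection by the authors' FDR was not run, because the columns of their comparisons were not used. The cause of these shifts was not tested.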
